A study of Urocitellus parryii with 3 samples.

Results

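Hibernating ground squirrels spend the winter in bouts of torpor, with a low body temperature and metabolism, broken by arousals in which the animal rewarms. The livers of arctic ground squirrels (Urocitellus parryii) late in torpor and early in arousal are compared here by their microRNAs (miRNAs). The early arousal group was 1 mixture of liver total RNA in equal amounts from animals of that stage, and the late torpor pool was made the same way from animals of the stage that the labels spell late topor. Each pool was labelled with the dye Cy3 and hybridised to 1 array with probes for mouse miRNAs. No number, age or sex of the animals or treatment is given in the sources used here. A pool of the post-reproduction stage, outside hibernation, was run on another array of the same slide. It enters the scaling and is given as a side value.

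The miRNAs described are the mouse entries that gave signal on both arrays. A probe was called detected when over 50% of its spots carried the flag for a signal well above background, and an entry was measured where at least 1 of its probes was detected on both arrays. Of 567 mouse entries, 145 were measured. A further 20 were detected on 1 of the 2 arrays (7 in early arousal, 13 in late torpor), and 402 on neither. Of the 145, 133 were also detected in post-reproduction with the same probes, 2 with some of them and 10 with none.

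miRNAs are short RNAs that guide Argonaute proteins to messenger RNAs, mostly lowering the stability or translation of their targets. They are cut from hairpin precursors by Drosha and Dicer, and mature forms are often long-lived, so their level changes with transcription, processing, decay and the mix of cells in the tissue. In liver the most abundant is miR-122 of hepatocytes, which acts in lipid and cholesterol metabolism. In bulk tissue, fewer cells of a type and less RNA per cell cannot be told apart.

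Values are Cy3 spot intensities on a linear scale, averaged in log2 over the spots and detected probes of a miRNA. They depend on the probe as well as on the amount of RNA, so levels are compared between arrays and not between miRNAs. Units are given before scaling, which lowers post-reproduction against the other 2 arrays. A difference is the scaled log2 value in early arousal minus that in late torpor, with a standard error (SE) from spots. With 1 pool and 1 array per stage there is no spread between animals, pools or arrays and no test: the SE and the 95% intervals cover spot spread only, and the stage cannot be told apart from its pool or its place on the slide. To pass the rule of size, a difference had to reach 1 on the log2 scale (2-fold), exceed 2 SEs and have the same sign in all detected probes.

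The hepatocyte marker miR-122 gave a strong signal in both stages, and most miRNAs lay close together. miR-122 was at 33094 intensity units in the early arousal pool against 37937 in the late torpor pool. The next 4 by signal were miR-720, let-7a, miR-22 and let-7f in early arousal, and miR-720, let-7a, miR-451 and miR-22 in late torpor, an order that the probes help to set. Of the 145 miRNAs, 126 (86.9%) differed by less than 0.5 and 89 (61.4%) by less than 0.25. The differences had an SD of 0.38 over miRNAs, against a median SE of 0.03 from spots. In the 111 miRNAs with at least 2 probes, the probes' differences spanned a median of 0.068 and at most 0.77, and in 19 of the 111 they had both signs. No array stood apart in background: the median negative control spot lay at 1.36 units in early arousal against 1.69 in late torpor, over 672 spots each.

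Which side of 0 a small difference lay on depended on the scaling. In early arousal 53 miRNAs were higher and 92 lower, with a median of -0.09, after each array was divided by a 75th percentile, that of the 250 probes which all 3 arrays detected. That scaling shifted the arrays against each other by 0.0053 only, so leaving it out gave the same split. The split was 67 and 78 with the probes detected on both arrays, 85 and 60 with the median, 65 and 78 after quantile normalization (2 at 0), 21 and 124 with a percentile over all probes, and 98 and 47 with the same before spots at or below 0 were given a floor (the all-probe and the unsubstituted all-probe scaling). These scalings moved single miRNAs by a median of 0.08, 0.15, 0.07, -0.25 and 0.21. In 68 miRNAs, 21 higher and 47 lower, the sign was the same under all 6 alternative scalings. The smallest of these differences was 0.21 in size, and the largest whose sign turned was 0.24.

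**Figure D1:**
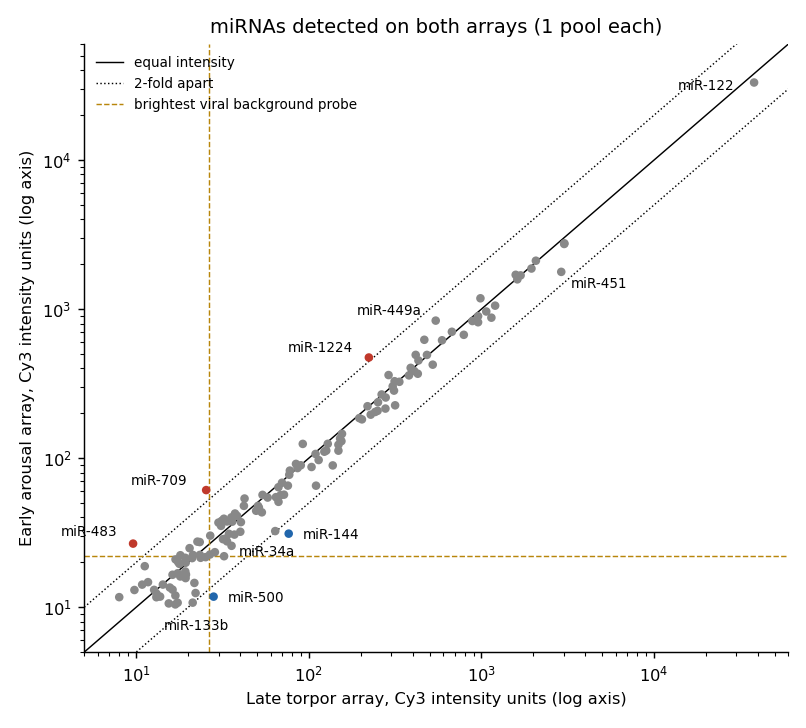
Intensity of each of the 145 measured miRNAs on the late torpor array (horizontal) and the early arousal array (vertical), in Cy3 units on log axes; red points were higher and blue points lower past the rule of size. Most points lie near the line of equal intensity, and miR-483, miR-709, miR-1224, miR-144 and miR-500 lie beyond the dotted lines of 2-fold; dashed lines mark the brightest detected probe of a viral background entry on each array.

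Past the rule of size, 3 miRNAs were higher in early arousal (2.07% of the 145) and 2 were lower (1.38%). The higher ones were miR-483, miR-709 and miR-1224, and the lower ones miR-144 and miR-500. At 1.5-fold, with the other conditions kept, miR-188-5p and miR-449a joined the higher group (5, or 3.45%). The lower group then also held miR-133b, miR-34a, miR-142-5p, miR-486, miR-451, miR-1, miR-150 and miR-142-3p (10 in all, or 6.9%). Among the dim miRNAs the background limits what a difference can show. A viral entry on the array, mghv-miR-M1-2, which has no counterpart in squirrel liver, had 22.2 units in early arousal against 26.3 in late torpor. On at least 1 array 43 of the 145 miRNAs were no brighter than that, among them miR-483, miR-709 and miR-500, and 33 were no brighter on both.

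The largest difference was in miR-483, whose gene lies in an intron of the gene of the growth factor Igf2. Early arousal gave 26.7 units, late torpor 9.59 and post-reproduction 3.99, the last not above background by the array's flag. It was 2.78-fold higher in early arousal than in late torpor (95% interval from spots 2.39 to 3.22). Spots of its 3 probes ran from 19.6 to 46.9 units in early arousal and from 6.84 to 13.3 in late torpor, so the arrays did not overlap, and each probe gave a difference between 1.43 and 1.52. The files place its target on mouse chromosome 7, from 149840873 to 149840885 (mm9). The other arm of the same hairpin, miR-483*, had 16.5 and 16.2 units, a difference of 0.02 ± 0.07 (SE from spots).

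miR-709, an entry whose status as a miRNA is disputed, gave 61.1 units in early arousal against 25.4 in late torpor, and 17.4 in post-reproduction, where 1 of its 2 probes was not detected. It was 2.39-fold higher in early arousal (2.27 to 2.53), and the probes gave 1.25 and 1.27. The target is on chromosome 8, from 86610073 to 86610084. miR-1224, which is spliced out as a short intron rather than cut by Drosha, gave 473 units in early arousal against 223 in late torpor, and 157 in post-reproduction. It was 2.12-fold higher (2.06 to 2.18), with 1.04 to 1.14 over its 3 probes, and its target is on chromosome 16, from 20604534 to 20604545. For both miRNAs no spot of a probe in early arousal was as dim as the brightest spot of that probe in late torpor. With normexp background correction, which adds 50 units to each spot, miR-483, miR-709 and miR-1224 were at 0.31, 0.48 and 0.88, short of the rule, and miR-1224 fell short under the all-probe scaling (0.83).

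These 3 belong to a list of 18 entries that are GC-rich or of disputed origin. The list was written with earlier results of these data known, so its direction is no separate support for theirs. Of its 8 measured members, 7 were higher in early arousal, with a median of 0.59 against -0.09 over all 145 miRNAs. The list's median was 0.19 with normexp (6 higher, 2 lower), 0.34 under the all-probe scaling, 0.28 in the 4 members detected in post-reproduction and 0.43 in the 3 above the viral entry on both arrays. miR-188-5p was at 0.74 ± 0.06, with 18.9 units against 11.2. miR-494 was at 0.43 ± 0.02, miR-712 at 0.13 ± 0.14 and miR-705 at 0.04 ± 0.09, both of the last within their spot error. miR-720, a fragment of a transfer RNA, was the exception at -0.14 ± 0.01, with 2759 and 3022 units. Under the all-probe scaling, miR-712 and miR-705 were lower too, and miR-720 was higher under 2 of the scalings, the median and the unsubstituted all-probe form.

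Entries of that list detected in early arousal alone can have a bound on that side only. For miR-671-3p early arousal was at least 3.67-fold higher and for miR-770-3p at least 3.1-fold, each on 5 spots of 1 detected probe of 4, and for miR-671-5p at least 1.69-fold. In a bound, the brightest probe is compared with its own level on the dim array or, where that is lower, with the lowest spot there that was well above background. Outside the list, miR-540-3p was at least 2.04-fold higher in early arousal, also on 1 probe of 4. The probes of miR-671-3p, miR-770-3p and miR-540-3p had 31.3, 26.5 and 17.4 units in early arousal, and the last is below the viral entry. In the other direction late torpor was at least 2.47-fold higher for miR-190b, with all 4 of its probes detected and 24.9 units there, also below the viral entry. Among the 16 entries beside these 4 that 1 array detected, 4 in early arousal and 5 in late torpor had bounds from 1.01-fold to 1.69-fold, and 7 gave no fold above 1.

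The 3 miRNAs that were higher past the rule have short targets. By the positions in the files, a miRNA's probes were aimed at 11 to 22.5 bases of the mouse sequence on average, and on this platform GC-rich sequences are given short targets. In the 7 miRNAs with a mean target under 13 bases the median difference was 0.74, and 6 of the 7 were higher. It was 0.06 in 21 miRNAs from 13 to under 16 bases, -0.10 in 60 from 16 to under 19, and -0.20 in 55 of 19 or more. Of the 7, all but miR-680 are on the list of GC-rich or disputed entries, so this is not a separate pattern. miR-500, lower past the rule at -1.26, is among the 21. Across the 143 miRNAs with a position, Spearman's rho of difference and target length was -0.33, a description over probes that share 2 arrays. Against mean intensity rho was -0.0047 over the 145. Long targets also occur on the higher side, as in miR-449a and miR-26b with 19.5 bases each. The part of target length or base composition in these differences was not tested.

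**Figure D2:**
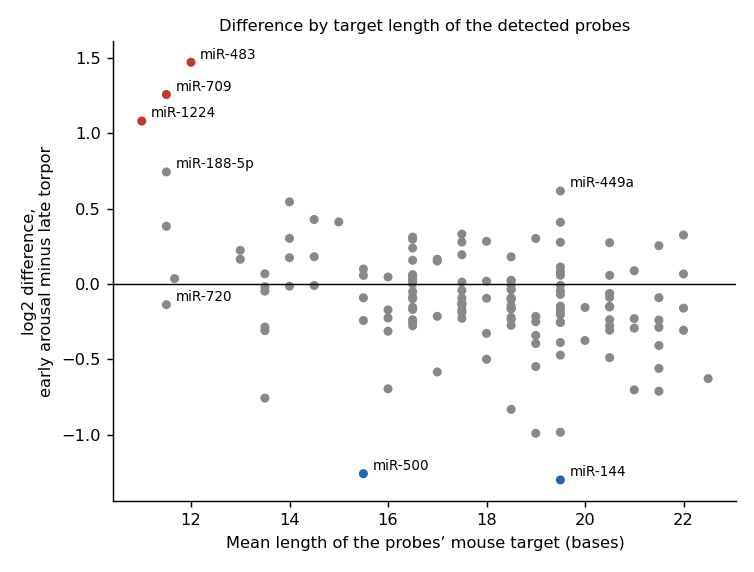
Difference of early arousal minus late torpor (log2, vertical) against the mean target length of a miRNA's detected probes in bases (horizontal), 1 point per miRNA, with red higher and blue lower past the rule of size. The shortest targets, at 11 to 12 bases, hold miR-483, miR-709, miR-1224 and miR-188-5p, and miR-720 among them lies below 0.

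In the early arousal liver the miRNAs of red blood cells were lower. miR-144 and miR-451 come from 1 precursor transcript that is switched on in red cell formation, and miR-486 is also abundant in red cells. miR-144 had the largest lower difference of all, at 31.2 units against 76.4 in late torpor, and 31.3 in post-reproduction, 2.46-fold lower in early arousal (2.35 to 2.58). The 2 probes gave the same difference of -1.30, with spots from 25.4 to 40.9 in early arousal and from 67.7 to 87.9 in late torpor. miR-486 had 65.4 and 110 units (1.69-fold lower), and miR-451 1777 and 2898 (1.64-fold lower, interval 1.61 to 1.67). The spots of each probe of these 3 did not overlap between the arrays.

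Summed over the 3, early arousal had 1873 units, late torpor 3085 and post-reproduction 1481. All 3 were lower under each of the 6 scalings, and miR-486 passed the rule under the all-probe scaling (-1.01). miR-144 fell short with normexp (-0.60). Though miR-144 and miR-451 lie on the same stretch of mouse chromosome 11, from 77886549 to 77886709 over both targets, their differences were 0.59 apart, more than the median range of 0.15 within groups of neighbouring miRNAs. The part of blood content in the liver's differences was not tested.

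miRNAs of white blood cells lay on the same side. Of 7 listed, 6 were measured and 5 were lower, where 92 of all 145 miRNAs were lower. The list's median was -0.56, against -0.09 over all 145, and no member passed the rule of 2-fold. It was -0.18 with normexp and -0.35 under the unsubstituted all-probe scaling. In the 4 members above the viral entry on both arrays, which leave out miR-142-5p and miR-150, it was also -0.35. miR-142-5p had 12.5 units in early arousal against 22.1 in late torpor, a difference of -0.83 ± 0.06, and miR-142-3p from the same hairpin had 89.4 and 138 units (-0.63 ± 0.03). miR-150 of lymphocytes was at -0.70 ± 0.12, miR-223 of myeloid cells at -0.49 ± 0.02 with 226 and 316 units, and miR-146a of the inflammatory response at -0.21 ± 0.03. miR-181a was the exception at 0.18 ± 0.05, and it was lower under the all-probe scaling. Summed over the 6, early arousal had 439 units, late torpor 599 and post-reproduction 508. Neither array detected miR-155.

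Muscle miRNAs were measured near the detection limit. miR-133b, of skeletal and heart muscle, gave 10.7 units in early arousal against 21.2 in late torpor, and 8.59, not above background by the flag, in post-reproduction. Its difference of -0.99 ± 0.08 fell just short of the rule, and it passed with the outlier spots kept (-1.12) and under the all-probe scaling (-1.24), while it was at -0.25 with normexp and -0.78 under the unsubstituted all-probe scaling. miR-1 had 10.7 and 17.4 units, a difference of -0.70 ± 0.09 (-0.15 with normexp). No spot of either was brighter in early arousal than the dimmest in late torpor. miR-133a was detected in late torpor alone, at least 1.40-fold higher there, while miR-206 and miR-208a were detected on neither array. Each of these levels was below that of the viral entry on the same array.

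**Figure D3:**
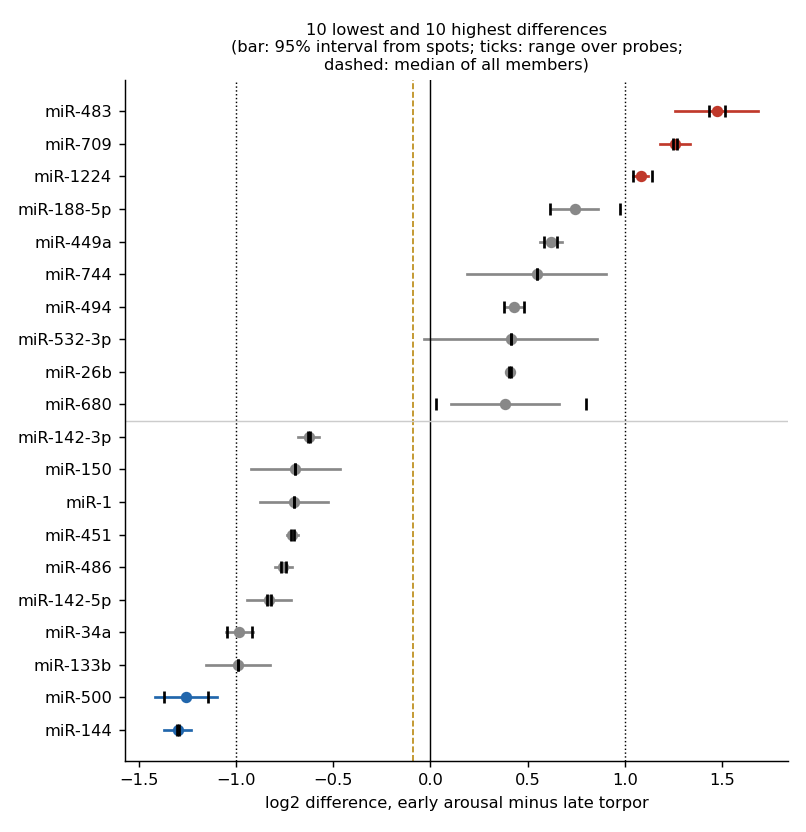
The 10 highest and 10 lowest of the 145 differences, early arousal minus late torpor on the log2 scale, with bars for the 95% interval from spots and black ticks for the lowest and highest probe; dotted lines mark the rule of size and the dashed line the median of all miRNAs, -0.09. The top holds 3 entries past 1, and the bottom holds red and white blood cell and muscle miRNAs beside miR-34a and miR-500.

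miR-500 was lower in early arousal, and none of its measured neighbours was lower by a like amount. It lies in introns of the chloride channel gene Clcn5 on the X chromosome together with miR-188, miR-362, miR-501 and miR-532. Early arousal gave 11.8 units, late torpor 28.1 and post-reproduction 26.4, a 2.39-fold lower level in early arousal than in late torpor (2.14 to 2.67). The probes gave -1.37 and -1.14, with spots from 7.52 to 19.8 in early arousal and from 22.5 to 34.0 in late torpor. On the same cluster miR-188-5p was at 0.74 ± 0.06, miR-532-3p at 0.41 ± 0.23 and miR-532-5p at -0.21 ± 0.14. Of these neighbours only miR-188-5p differed by more than 2 SEs. The targets of miR-500 and miR-188-5p begin at 6814821 and 6825157 on the X chromosome. At -0.30 with normexp, miR-500 fell short of the rule.

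miR-34a and miR-449a, which belong to the same seed family and so are predicted to bind many of the same messenger RNAs, differed in opposite directions. miR-34a, induced by p53 and linked to cell cycle arrest, gave 32.4 units in early arousal against 63.9 in late torpor, and 68.8 in post-reproduction. Its difference was -0.98 ± 0.04, or 1.98-fold lower, just short of the rule, which it passed with the brightest probe alone (-1.05), with total gene signal (-1.02), with strict detection (-1.01) and under the all-probe scaling (-1.23). It was at -0.46 with normexp and -0.77 under the unsubstituted all-probe scaling. miR-449a, known from ciliated epithelium, gave 837 units in early arousal against 543 in late torpor, and 565 in post-reproduction. It was 1.53-fold higher (1.48 to 1.60), with 0.58 and 0.65 in its 2 probes, and its sign was the same under all scalings. After scaling, late torpor lay above post-reproduction for both miRNAs, by 0.13 for miR-449a. The spots of each probe were apart in both miRNAs, on opposite sides.

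miR-34a is the lowest of a list of 11 miRNAs of stress responses and p53. Of the list 6 were measured, miR-34a included, with 2 higher, 4 lower and a median of -0.11, which was above 0 with the median scaling and the unsubstituted all-probe scaling. miR-194 was the highest at 0.06 ± 0.02, and miR-22 was at 0.03 ± 0.02 with 2110 and 2066 units. Both were lower under the all-probe scaling, and the probes of each had both signs. miR-21, which rises in injured and regenerating liver, was at -0.19 ± 0.01, with 1054 and 1200 units. Its probes gave -0.31 and -0.07, and it was at 0.02 with the unsubstituted all-probe scaling. miR-210, induced by low oxygen, was detected on neither array.

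**Figure D4:**
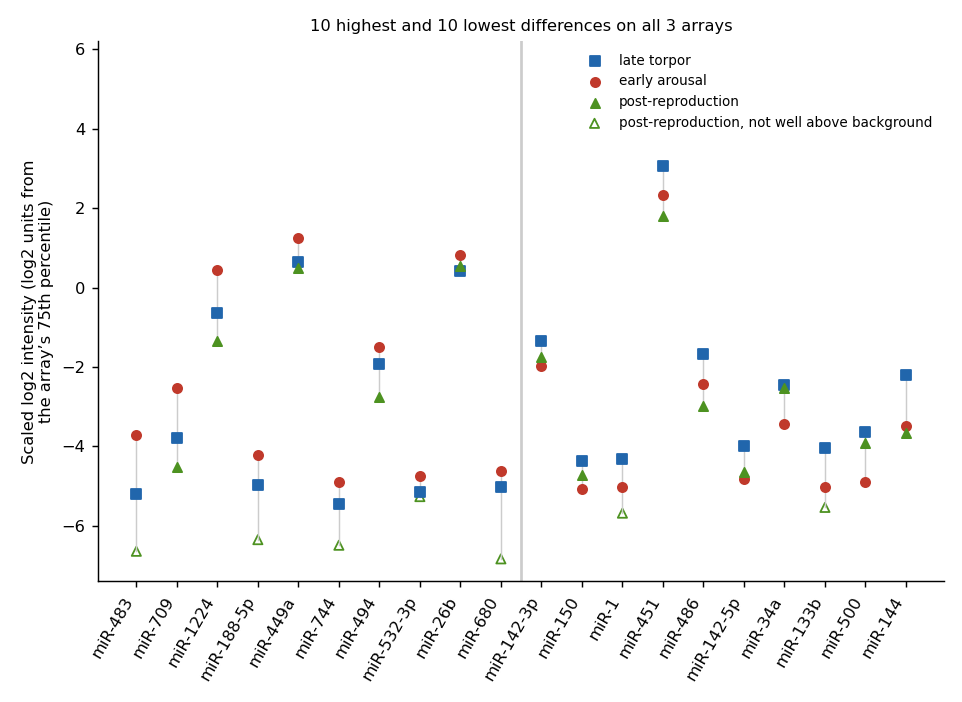
Scaled log2 intensity of the 10 highest and 10 lowest differences in late torpor, early arousal and post-reproduction, 1 array each, with open triangles where the miRNA did not reach the detection flag in post-reproduction. Of the 10 highest, all but miR-26b are in the order early arousal, late torpor, post-reproduction from the top. miR-144 lies near its post-reproduction level in early arousal.

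Hepatocyte miRNAs went both ways within narrow bounds. All 6 listed were measured, 2 higher and 4 lower, with a median of -0.12 that was above 0 with the median scaling (0.03) and the unsubstituted all-probe scaling (0.09). The highest was miR-365 at 0.25 ± 0.02, with 1181 units in early arousal against 986 in late torpor. miR-148a was the lowest at -0.39 ± 0.02, with 876 and 1141. miR-122 was at -0.20 ± 0.03, miR-193 at -0.24 ± 0.03 and miR-192 at -0.03 ± 0.02. miR-122 was higher with the unsubstituted all-probe scaling, while miR-365, miR-148a and miR-193 kept their sign under all 6. None of the 6 passed 1.5-fold.

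In the seed family of miR-148a, miR-148b was at -0.39 ± 0.03 (50.9 and 66.7 units), and miR-152 was at 0.03 ± 0.06 (lower under the all-probe scaling). The difference of miR-148b was thus as large as that of miR-148a, and both had spots apart between the arrays in every probe. Of 11 miRNAs listed for lipid and glucose metabolism, 9 were measured and 8 were lower, with a median of -0.20 and none past 1.5-fold, but 5 of the 9 were higher with the unsubstituted all-probe scaling. The lowest was miR-378 at -0.31 ± 0.03, with 43.3 and 53.4 units and 104 in post-reproduction, and the highest miR-335-5p at 0.30 ± 0.11. The other strand of the miR-378 hairpin, miR-378*, was at -0.50 ± 0.07.

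Large families were close to the median of all miRNAs. All 9 of the let-7 family, which is abundant in differentiated cells, were lower, from -0.31 for let-7i to -0.04 for let-7e, with a median of -0.16, but 5 of them were higher with the unsubstituted all-probe scaling, 4 with the median, and 2 with the probes detected on both arrays and after quantile normalization. let-7i had 424 and 522 units, miR-98 of the same family was at -0.29 ± 0.02, and both kept their sign under all 6. Members with near-identical sequences can share signal on such arrays, so these 9 values may overlap in what they measure.

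The miR-17 clusters, which drive proliferation, had 9 of 13 listed members measured, 4 higher and 5 lower, with a median of -0.17 that was above 0 with the unsubstituted all-probe scaling and in the brighter miRNAs alone. Within the cluster of miR-17 on chromosome 14 the values ran from -0.55 ± 0.10 for miR-18a through -0.28 ± 0.03 for miR-19a to 0.24 ± 0.03 for miR-92a, which was lower under the all-probe scaling. miR-18a had 10.6 and 15.4 units. The miR-15 family, which holds back the cell cycle, had 5 of 6 lower and a median of -0.08, with miR-15b lowest at -0.37 ± 0.02 (215 and 278 units) and miR-322 highest at 0.33 ± 0.10. Its median was above 0 with the probes detected on both arrays, the median and the unsubstituted all-probe scaling.

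miR-26b was higher at 0.41 ± 0.01, with 622 units against 467 in late torpor (582 in post-reproduction), and its sign held under all 6 scalings. Its relative miR-26a was at 0.10 ± 0.01, lower under the all-probe scaling. In the miR-30 family, miR-30b was at 0.31 ± 0.02, with 361 and 290 units. miR-30a, miR-30c, miR-30d and miR-30e were at 0.05, 0.01, -0.02 and -0.17, and each of these 4 signs turned under at least 1 of the scalings. miR-30b and miR-30d, neighbours on chromosome 15, were thus 0.33 apart. miR-29a, miR-29b and miR-29c, which restrain collagen genes, were at -0.01, -0.09 and -0.24, 2 of the 3 being higher with the median and the unsubstituted all-probe scaling.

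In the miR-23 clusters, miR-27a and miR-23a were at -0.28 and -0.14, and miR-24, miR-27b and miR-23b at -0.09, -0.09 and 0.06, with 4 of the 5 higher with the median and the unsubstituted all-probe scaling. The miR-99 and miR-125 family ran from -0.27 for miR-99a to 0.02 for miR-125b-5p, with miR-125a-5p at -0.25, miR-99b at -0.17 and miR-100 at -0.16. Of these 5, 3 were higher with the unsubstituted all-probe scaling. miR-452 was at 0.28 ± 0.04, with 39.2 and 32.2 units, while miR-224 of the same cluster was not measured.

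None of the measured markers of the liver's endothelial, mesenchymal and epithelial cells reached 1.5-fold. Endothelial miR-126-3p and miR-126-5p were at -0.10 and 0.09, and miR-221 and miR-222 at -0.25 and -0.29. The summed intensity of these 4 was 1169 units in early arousal against 1270 in late torpor, and 2 of the 4 were higher with the median and the unsubstituted all-probe scaling. Mesenchymal miR-143, miR-145, miR-199a-5p and miR-214 were at -0.09, -0.01, -0.34 and 0.22, summing to 153 and 167 units, and their median of -0.05 turned above 0 under 4 of the 6 scalings. Epithelial miR-200a and miR-200b were at 0.28 ± 0.08 and 0.16 ± 0.06, the second lower under the all-probe scaling, and summed to 65.0 and 56.0 units. miR-200c, miR-141 and miR-429 of that family were not measured. Of 5 neural miRNAs, miR-128 alone was measured (-0.47 ± 0.06, with 25.8 and 35.7 units), and of 3 pancreatic ones none was detected.

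**Figure D5:**
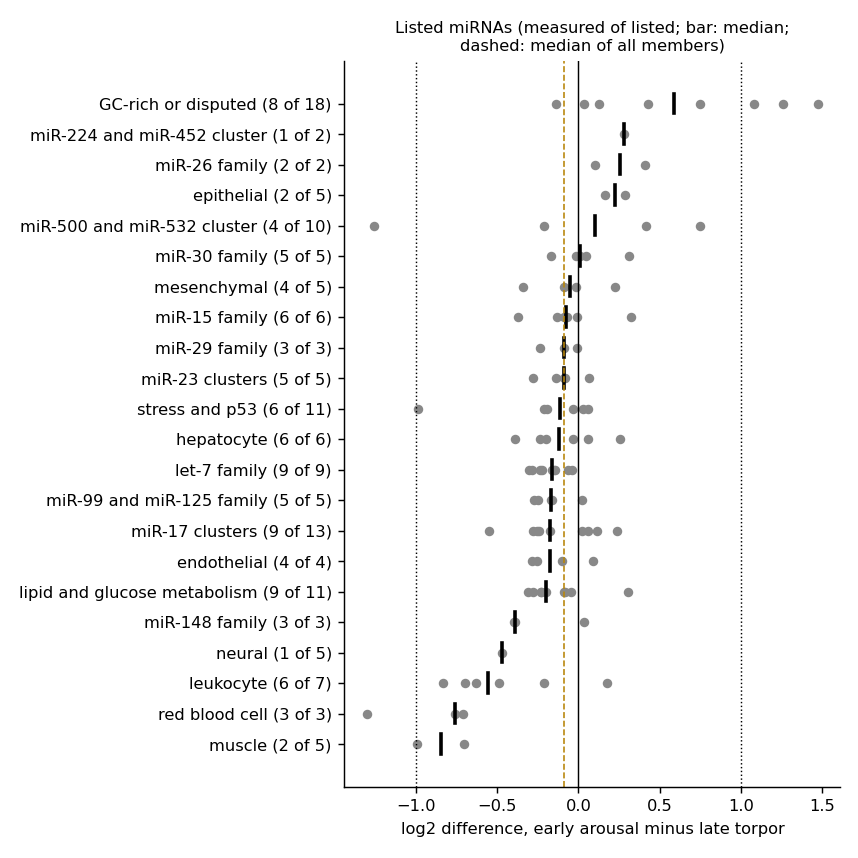
Differences of early arousal minus late torpor (log2) for each measured member of the listed groups, with a bar at the group's median and the numbers measured of listed in brackets; the dashed line is the median of all 145 miRNAs. Muscle and red and white blood cell miRNAs are at the low end and the GC-rich or disputed entries at the high end, while most families lie near the dashed line.

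miRNAs encoded side by side were on the same side of 0 in most groups. Of the 145, 68 fell into 29 groups whose targets lie within 10 kb of the next on the mouse genome. In 22 of the 29 all members were on the same side of 0. Over all 145 miRNAs, 53 were higher and 92 lower, and the sign of 77 turned under at least 1 scaling. Some of the 29 groups are only the arms of a single hairpin, so they recur among the pairs of arms below. The range within a group had a median of 0.15. The widest groups were the arms of miR-483 (1.45) and miR-188-5p with miR-532 (0.96). The miR-17 cluster (0.79), miR-144 with miR-451 (0.59), and miR-214 with miR-199a-5p (0.56) followed. miR-500, at -1.26, lies just over 10 kb from miR-188-5p and was left out of that group by the cut. With miR-500 that group would have been the widest. Both arms of a hairpin were measured for 15, and 12 of these pairs were on the same side, a median of 0.19 apart. After miR-483, the arms of miR-532 differed most (0.63, with SEs of 0.14 and 0.23), then those of miR-340, with -0.16 for the 5p and -0.56 for the 3p arm. For miR-29c and miR-30a the arms were less than 0.01 apart. The 11 star strands, the arms usually less abundant, had a median of -0.16, with 4 higher and 7 lower.

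Among the 51 miRNAs in none of the lists, 22 were higher and 29 lower, with a median of -0.05. After miR-449a the highest were miR-744 at 0.55 ± 0.18, on 1 probe with 5 spots and 11.7 and 7.97 units, miR-680 at 0.38 ± 0.14, whose 4 probes spread from 0.03 to 0.80, and miR-574-5p at 0.33 ± 0.03. The lowest were miR-324-5p at -0.58 ± 0.06 (14.6 and 21.7 units), miR-340-3p at -0.56 ± 0.05 (22.0 and 32.3), miR-378* at -0.50 and miR-184 at -0.41 ± 0.04 (112 and 148). These last 4 had spots apart between the arrays in every probe, as did 27 lower and 9 higher miRNAs in all.

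The 10 miRNAs measured here that post-reproduction did not detect were dim on both arrays. They were miR-483, miR-188-5p, miR-744, miR-532-3p, miR-680 and miR-705 on the higher side and miR-29b*, miR-18a, miR-1 and miR-133b on the lower side. Each had at most 26.7 units in early arousal against 21.2 in late torpor. Of the 133 miRNAs detected on all 3 arrays with the same probes, early arousal was above both other stages in 34, below both in 49 and between them in 50. After scaling, miR-144, miR-451 and miR-486 were above post-reproduction in both hibernation stages. They were above by 0.18, 0.53 and 0.55 in early arousal and by 1.48, 1.24 and 1.31 in late torpor. In unscaled units miR-144 was no higher in early arousal than in post-reproduction, so its 0.18 came from the scaling. Control spots gave 0.23 (hur_6) to 0.41 (mr_1) for early arousal minus post-reproduction. For late torpor minus post-reproduction the same control entries gave 0.40 (mr_1) to 1.09 (hur_6), with hur_2 next below hur_6 at 0.54. Comparisons with post-reproduction were made under the main scaling only. These comparisons share arrays, so they are not independent of the differences above.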

How the data were processed

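Scanner files of 3 arrays were used, of which early arousal and late torpor were compared. Per the submitters' processing notes, Agilent Feature Extraction 9.5.3.1 read the arrays. Each spot's deposited intensity, per the file headers, was corrected for a fitted spatial background but not scaled between arrays, and the other deposited values used are flags for detection, outliers and saturation. The series table that the authors deposited gave equal intensity at all 12493 spots of each array (within 1e-06), on a linear, uncentred scale. Of 11540 spots for miRNA entries, those flagged as outliers were left out (398 in early arousal, 280 in late torpor), and none was saturated. Spots at or below 0 were set to the lowest spot well above background (10.1 and 8.49 units). None of the measured miRNAs had such a spot. Log2 intensities were averaged over spots, then over probes detected on both arrays. The arrays were scaled by their 75th percentile over probes detected on all 3 (350.4 and 349.1 units). A percentile over all probes was also used in an unsubstituted form, taken on each probe's mean intensity without that substitution. The bounds' floor is the lowest spot well above background on the dim array. Python 3.11.15, numpy 2.4.6, pandas 2.3.3 and limma 3.58.1 (normexp, offset 50) were used. The calculation was tested on simulated data with planted differences.

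The miRNAs named are those past the rule of size, the 10 highest and 10 lowest, the ends of each list (all members of lists with up to 5 measured), the 5 brightest on each array, bounds of at least 2-fold, and those not detected in post-reproduction. Members and lists were chosen with earlier results of these data known. Others named in the text, such as miR-494 and those outside the lists, were chosen after their values were seen. No mature sequence was used here, so groups by shared seed were not formed from sequence, and the seed families named are background knowledge. The number of arrays limits the precision.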

Additional observations from a re-analysis of the deposited data

Results flagged for a closer look

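The control spots were outside the comparison. A control entry named hur_6, of unstated target in the sources used here, was far above the negative controls on all arrays. Over 20 spots each, its median intensity in the early arousal pool was 10164 units, against 18828 in late torpor and 9807 in the post-reproduction pool. Its scaled log2 difference of early arousal minus late torpor was -0.87 ± 0.09 (SE from spots). The bright control entries hur_1, hur_2, hur_4 and mr_1 were at -0.15, -0.15, -0.20 and 0.01 in the same comparison. No cause was tested.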

How the results depend on the processing

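With 1 array per stage, no alternative tests the spread between animals. miR-483, miR-709, miR-1224, miR-144 and miR-500 kept their direction under all alternatives that could measure them, and none of the 5 reversed. With strict detection, where all spots had to be well above background, miR-483 and miR-500 were not measured. That left miR-709 and miR-1224 higher and miR-144 and miR-34a lower past the rule. The count of 3 higher became 0 with normexp (which adds 50 units and shrinks dim differences), 1 in the miRNAs detected in post-reproduction, in the brighter miRNAs alone and in the 102 above the viral entry on both arrays (an alternative chosen after the data were examined), and 5 at 1.5-fold. The count of 2 lower became 6 with the all-probe scaling, 0 with normexp and in the brighter miRNAs, 1 above the viral entry and 10 at 1.5-fold. The 1 higher miRNA in each of these reduced sets was miR-1224, and the 1 lower above the viral entry was miR-144. The median of all miRNAs, -0.09, became -0.012 with the probes detected on both arrays, 0.060 with the median, -0.34 with all probes, 0.12 with the unsubstituted form and -0.015 after quantile normalization. Signals near the viral entry limit what can be said of 43 of the 145 miRNAs.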
